A study of Homo sapiens with 4 samples.

Results

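Zinc transporters and metallothioneins were followed in lipid-loaded Hep G2 cells, as 31 named genes of the 62655 gene IDs in the count table. The members were 13 SLC39A importers, 9 exporters (8 of the SLC30A family and TMEM163), 8 metallothioneins and the metal sensor MTF1, each found by the Ensembl ID that pairs with its symbol. Hep G2 is an established human hepatocellular carcinoma line. The cells received the LysTTT-5'tRF mimic, an oligonucleotide copy of a fragment from the 5' end of a lysine tRNA, or a negative control oligonucleotide, with 2 libraries per group. All 4 cultures were plated at 150000 cells per ml, had oleic acid-rich medium from 24 h later, were transfected after another 24 h, and were harvested 24 h after transfection. Whether the replicate libraries stem from different cultures is not stated, and the p-values then describe only how far these libraries vary, possibly for technical reasons. In bulk RNA a lower level can mean fewer cells carrying a transcript or less of it per cell, which cannot be told apart.

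Zinc is a structural or catalytic part of very many proteins, yet the free ion is kept scarce. ZIP proteins (SLC39A genes) move zinc into the cytosol from outside the cell or from organelles, and ZnT proteins (SLC30A genes) move it the other way. Metallothioneins are small cysteine-rich proteins that bind zinc and copper, and MTF1 is the transcription factor that, when zinc is plentiful, binds metal response elements in front of metallothionein genes and SLC30A1. The liver takes up much of the body's circulating zinc and is a main site of metallothionein synthesis.

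Promoter sequences with the metal response element are shown first, since MTF1 is known to act through it. Its core was searched as TGCACNC or TGCGCNC on both strands of RefSeq promoters (GRCh38.p14, 250 bases before to 50 bases after a gene start). Windows are reported for 24 of the 31 members, with 33 starts among them, and 15 of the 33 windows held a core. SLC39A14 and SLC39A4 were left out, so their core numbers are not known here. At least 1 core was found in 29.6% of all 35116 RefSeq windows, and 4 or more in 0.601% of them. The 3 metallothioneins with a reported window were MT2A with 8 cores, MT1H with 8 and MT1X with 4. None of the 18 reported ZIP windows, from 11 ZIP genes without SLC39A14 and SLC39A4, had more than 1 core. Of the 11 ZnT windows 2 had 2 cores (SLC30A1 and 1 start of SLC30A3). The window of MTF1 itself held none. A match of letters describes the sequence and does not show binding. Printed below, 5' to 3' on the gene's strand with cores of either strand in capitals, are MT2A (chr16:56608334-56608633, plus strand), MT1X (chr16:56682220-56682519, plus strand) and SLC30A1 (chr1:211579112-211579411, minus strand). They are shown because metallothioneins and SLC30A1 are classical MTF1 targets that differ in core number here.
MT2A: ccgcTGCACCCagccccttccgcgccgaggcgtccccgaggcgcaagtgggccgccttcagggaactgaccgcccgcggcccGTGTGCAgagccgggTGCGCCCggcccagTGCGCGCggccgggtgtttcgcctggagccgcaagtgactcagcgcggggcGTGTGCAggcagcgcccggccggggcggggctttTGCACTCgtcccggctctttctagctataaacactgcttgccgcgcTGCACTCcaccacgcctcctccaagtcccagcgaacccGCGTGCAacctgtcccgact
MT1X: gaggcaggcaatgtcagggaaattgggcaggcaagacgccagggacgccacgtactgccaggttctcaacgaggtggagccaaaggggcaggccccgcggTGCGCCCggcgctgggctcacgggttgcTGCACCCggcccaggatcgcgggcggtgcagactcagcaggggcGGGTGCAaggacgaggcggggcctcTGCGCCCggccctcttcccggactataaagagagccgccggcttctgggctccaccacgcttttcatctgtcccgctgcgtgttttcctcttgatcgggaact
SLC30A1: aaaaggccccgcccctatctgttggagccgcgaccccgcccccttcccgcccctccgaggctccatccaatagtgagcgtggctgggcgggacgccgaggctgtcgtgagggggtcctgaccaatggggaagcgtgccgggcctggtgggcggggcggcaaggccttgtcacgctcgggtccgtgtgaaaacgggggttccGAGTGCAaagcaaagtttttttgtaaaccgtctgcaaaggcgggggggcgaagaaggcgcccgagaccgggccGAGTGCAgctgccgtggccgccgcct
The cores did not overlap one another in these windows. MT1X and MT1H both had cores starting at positions -78 and -53 relative to the gene start, and MT2A had them at -88 and -54.

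**Figure D1:**
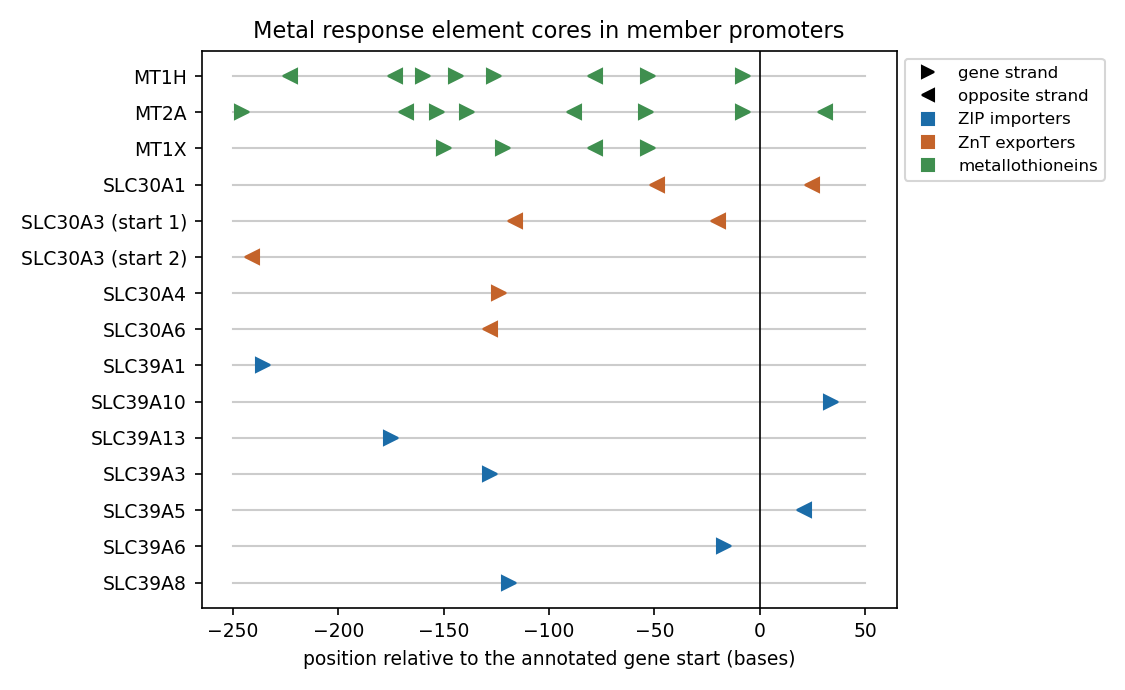
Positions of metal response element cores (x axis, bases relative to the annotated gene start) in the 15 reported member promoter windows that hold at least 1. Arrows pointing right are on the gene's strand and arrows pointing left on the opposite one. MT1H and MT2A carry 8 cores each and MT1X 4. No reported ZIP window holds more than 1, and the windows of SLC39A14 and SLC39A4 are not reported here.

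Reads counted to genes numbered between 15430539 and 18961222 per library, and 14464 genes were tested. Summed over 11 hepatocyte markers, the level was 52757 and 52529 counts per 1000000 reads (CPM, on TMM-scaled library sizes) in mimic libraries and 51791 and 50005 CPM in control libraries. Within that list 7 markers had a log2 fold change above 0 and 4 below. ALB was called at 0.23 (Benjamini-Hochberg adjusted p = 0.0109 by edgeR), and TTR and AFP stood at 0.26 and 0.13 without passing. AHSG and APOA2 had both mimic libraries below both control libraries, at -0.10 and -0.07, also without passing. The 6 markers of macrophages and leukocytes summed to 0.523 and 0.373 CPM with the mimic and to 0.178 and 0.124 CPM in the control, with PTPRC, CD163 and MARCO at 0. The 5 endothelial markers summed to between 9.54 and 11.8 CPM, mostly from PECAM1, with KDR at 0. Of the 3 tested, 2 had a log2 fold change above 0 and 1 below. VWF had 14 and 22 reads in mimic libraries 1 and 2 and 7 in each control library. Its log2 fold change was 1.30, without passing. The 7 markers of stellate cells and fibroblasts summed to between 30.3 and 35.3 CPM, mostly from PDGFRB and ACTA2, with COL1A2, DCN and LUM at 0. Cholangiocyte markers were present, between 931 and 1035 CPM, from KRT19, SOX9 and EPCAM, while KRT7 was at 0. KRT19 had a log2 fold change of -0.24 without passing (Benjamini-Hochberg adjusted p = 0.0688 by edgeR). On the first principal component (40.7% of the variance) mimic libraries 1 and 2 lay at -23.0 and -4.62, and control libraries 1 and 2 at 1.53 and 26.0, so mimic library 1 and control library 2 were the outer ones. The part of these differences in the results was not tested. Control library 2 also had the largest share of reads aligned to several places, 10.4% of its total, against 8.30% to 8.47% in the other 3 libraries.

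Of the 31 members 26 passed the filter on low counts and were tested. One of them, SLC39A14, rose in cells given the mimic, and none fell at an adjusted p under 0.05 (edgeR's quasi-likelihood test, Benjamini-Hochberg adjustment over all genes tested). Over all 14464 genes 0.346% passed. At an unadjusted p under 0.05 there were 5 members, which is 19.2% of those tested, against 9.43% of all genes. They were SLC39A14 on the higher side and MT2A, MT1E, MTF1 and SLC39A13 on the lower side. The libraries of the groups did not overlap in 13 of the 26, with the mimic higher in 6 and lower in 7, where 39.1% of all tested genes did not overlap. The median log2 fold change of the 26 was -0.01, against 0.00 over all genes.

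**Figure D2:**
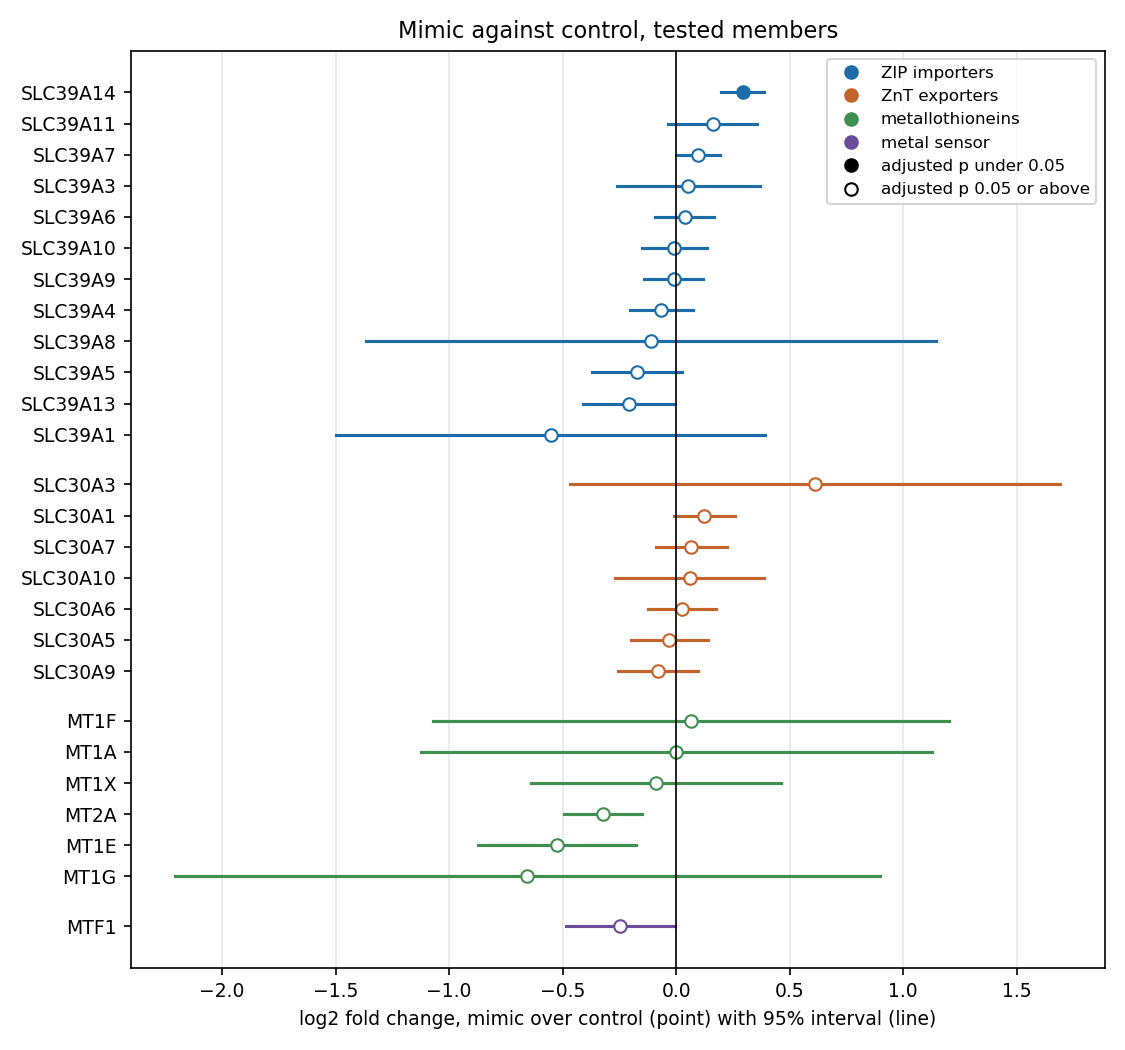
Log2 fold change of mimic over control (x axis) for the 26 tested members, grouped by role, with 95% intervals; filled points passed an adjusted p of 0.05. SLC39A14 at 0.29 is the single filled point, and the wide intervals belong to genes near 1 CPM such as MT1G and SLC39A8.

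Levels of single genes were ranked after division by length, as CPM per kilobase of union exon (GENCODE v29). Sums over genes and shares of reads, given further below, were not divided by length. By that measure SLC39A14 was the most abundant member with 208.5 CPM per kilobase in the mimic and 170.1 in the control. SLC39A7 came next with 107 CPM per kilobase in the mimic and 100.5 in the control, and then MT2A with 49.0 in the mimic and 61.1 in the control. SLC39A6, SLC39A4 and the leading exporter SLC30A1 followed at 23.4, 18.0 and 15.3 CPM per kilobase over all 4 libraries. From SLC39A9 at 12.8 down to SLC39A11 at 5.59 CPM per kilobase, 10 genes lay close together, among them SLC30A5, SLC30A6, SLC30A7 and SLC30A9. Union lengths count every annotated isoform. With the median length of the protein-coding transcripts instead, SLC39A14 and SLC39A7 kept ranks 1 and 2 and MT2A moved to rank 4 behind SLC39A10. SLC30A7 then led the exporters at 56.0 CPM per kilobase, ahead of SLC30A1 at 15.3. That median counts short annotated transcripts too. It was 578 bases for SLC39A14, 593 for SLC39A10 and 1281 for SLC30A7, against 5474 for SLC30A1. Which transcripts the cells use was not tested. The order further down thus depends on the length used.

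**Figure D3:**
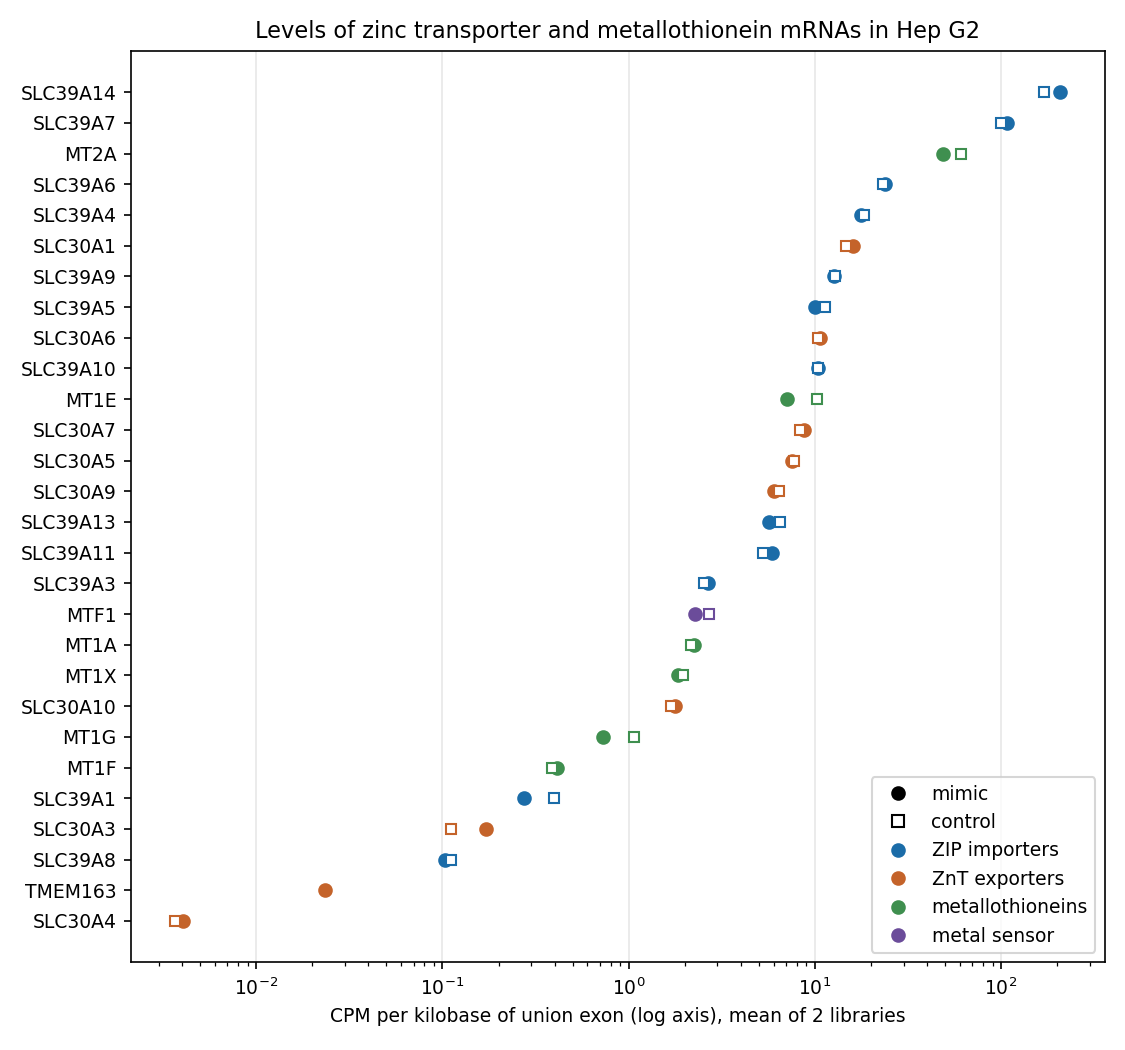
CPM per kilobase of union exon (x axis, log scale) of the 28 members with at least 1 read, as means of 2 libraries; filled circles are mimic, open squares control, colours mark roles. SLC39A14 leads at 208.5 with the mimic and 170.1 in the control, and TMEM163 has no control point because it had no control reads.

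SLC39A14, the ZIP importer that hepatocytes use for zinc, manganese and iron not bound to transferrin, was the member that rose. It had 1486 and 1409.5 CPM in mimic libraries 1 and 2, against 1248 and 1113 CPM in control libraries 1 and 2. Both mimic libraries lay above both control libraries, and the order of the 4 was that of the first principal component. The means were 1448 ± 53.9 CPM in mimic libraries and 1181 ± 95.2 CPM in control libraries (SD, n = 2 each), which is 1.23 times the control. On the log2 scale the change was 0.29 (standard error 0.05), the 95% interval ran from 0.20 to 0.39, and edgeR's quasi-likelihood test gave an adjusted p of 0.00279 (Benjamini-Hochberg). Its unadjusted p ranked 9 among the 14464 genes. SLC39A14 (ENSG00000104635) lies on chromosome 8 from 22367249 to 22434129 of GRCh38 on the plus strand, and none of its exon sequence overlaps another gene in GENCODE v29. It passed in each of the 4 fits that left out 1 library, with log2 fold changes from 0.22 without control library 2 to 0.38 without control library 1. The call was lost with no filter on low counts, where edgeR called no gene at all (log2 fold change 0.29, adjusted p = 0.754, Benjamini-Hochberg). Over the settings tried its adjusted p lay between 3.82e-16 and 0.754 (edgeR, Benjamini-Hochberg). The lowest came with the column numbers fitted as a replicate block, which was added after seeing the data and left 1 residual degree of freedom.

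SLC39A14 alone made up 66.4% and 65.6% of all reads counted to the 13 importer genes in mimic libraries 1 and 2, and 63.1% and 60.1% in control libraries 1 and 2. These are shares of reads, not divided by gene length. Summed importer reads came to 2194 ± 61.9 CPM in mimic libraries and 1914 ± 89.0 CPM in control libraries (SD, n = 2 each). Without SLC39A14 the sums were 752 and 740.5 CPM in mimic libraries 1 and 2 and 729 and 738 CPM in control libraries 1 and 2. The other importers together thus stood at 1.02 times the control, a sum on which no test was made.

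**Figure D4:**
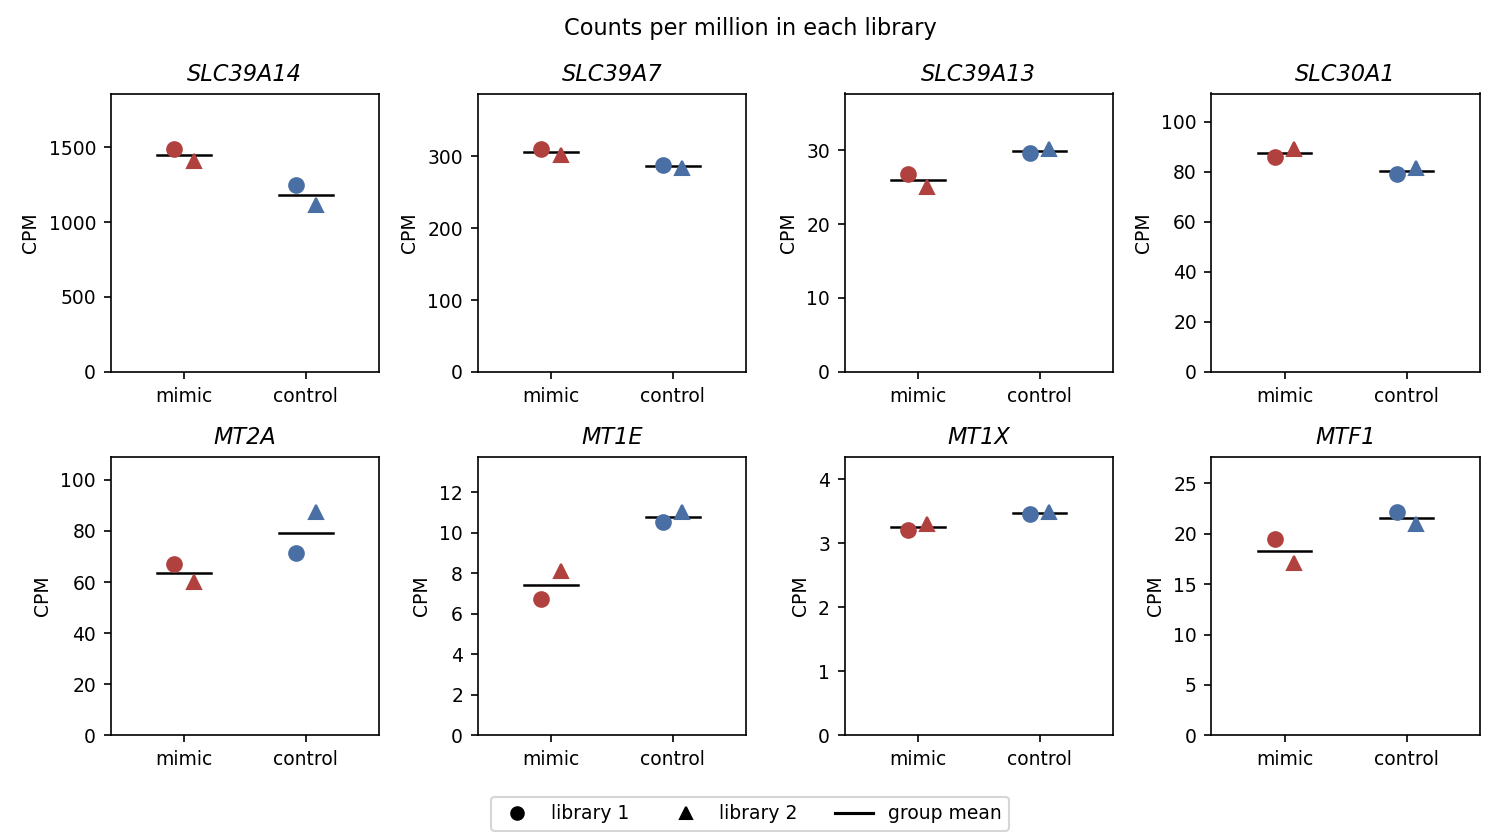
CPM (y axis, from 0, scaled per gene) in each library for 8 members; circles are library 1, triangles library 2, bars group means. SLC39A14, SLC39A7 and SLC30A1 are higher in both mimic libraries, and MT2A, MT1E, MT1X, MTF1 and SLC39A13 are lower in both. Only SLC39A14 is past the adjusted threshold.

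The remaining 11 tested importers did not pass. SLC39A7, which releases zinc from the endoplasmic reticulum, had 309.8 and 302 CPM in mimic libraries 1 and 2 and 288 and 284 CPM in control libraries 1 and 2. Its groups did not overlap, its log2 fold change was 0.10 with a 95% interval from -0.0013 to 0.19, and the unadjusted p was 0.0528 (edgeR quasi-likelihood, Benjamini-Hochberg adjusted p = 0.537). Antisense exons of RXRB lie opposite 8.58% of the SLC39A7 exon sequence. The kit was stranded, but how strand was treated in counting is unknown here. SLC39A13, a carrier of the early secretory pathway that connective tissue formation depends on, had 26.8 and 25.02 CPM in mimic libraries 1 and 2 and 29.6 and 30.1 CPM in control libraries 1 and 2. It lay lower in both mimic libraries, with a log2 fold change of -0.21 and a 95% interval from -0.41 to -0.01 (unadjusted p = 0.0433 and adjusted p = 0.513 by edgeR's quasi-likelihood test, Benjamini-Hochberg).

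SLC39A4, the importer for zinc uptake from the diet in the intestine, averaged 88.6 ± 2.76 CPM in mimic libraries and 92.8 ± 7.66 CPM in control libraries (SD, n = 2 each), a log2 fold change of -0.06 (95% interval -0.20 to 0.07). SLC39A5, found on the basolateral side of polarised epithelia, had a log2 fold change of -0.17 with a 95% interval from -0.37 to 0.03. SLC39A6 and SLC39A10, close relatives that form a complex at the plasma membrane, had log2 fold changes of 0.04 (95% interval -0.09 to 0.17) and -0.01 (-0.15 to 0.14). For SLC39A9 of the Golgi it was -0.01 (-0.14 to 0.12), and for SLC39A11, the human member of the gufA-like branch of the family, 0.16 (-0.03 to 0.36). SLC39A3 of the plasma membrane stood at 0.05 with a wider interval from -0.26 to 0.37.

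The low importers were less well measured. SLC39A8, which carries zinc and manganese, had 9 and 14 reads in mimic libraries 1 and 2 and 19 and 5 reads in control libraries 1 and 2 (log2 fold change -0.11, 95% interval -1.37 to 1.14). SLC39A1, an importer of the plasma membrane, had 17 and 14 reads with the mimic and 21 and 23 in the control (log2 fold change -0.55, 95% interval -1.50 to 0.39). In GENCODE v29 60.8% of the SLC39A1 exon sequence is shared with AL358472.7 on the same strand, a gene with 0 reads in every library, and 6.29% to 6.36% of each library's total was set aside as ambiguous between genes. Whether the shared sequence lowered the SLC39A1 count was not tested. SLC39A2 had no reads in any library, which allows up to 0.160 to 0.196 CPM (3 reads, depending on the library, counting error only).

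The exporters held no called gene, and none had an unadjusted p under 0.05. SLC30A1, the exporter of the plasma membrane and a classical MTF1 target, had 85.8 and 89.0 CPM in mimic libraries 1 and 2 and 79.0 and 81.5 CPM in control libraries 1 and 2. Both mimic libraries were above both control libraries. Its log2 fold change was 0.12 with a 95% interval from -0.01 to 0.26 (unadjusted p = 0.0659 and adjusted p = 0.571 by edgeR's quasi-likelihood test after Benjamini-Hochberg adjustment). The exporters of the early secretory pathway were close to 0, with log2 fold changes of -0.03 for SLC30A5 (95% interval -0.20 to 0.14), 0.03 for its partner SLC30A6 (-0.12 to 0.18) and 0.07 for SLC30A7 (-0.09 to 0.22). Antisense exons lie opposite 9.20% of the SLC30A5 exon sequence. SLC30A9, a mitochondrial zinc exporter, stood at -0.08 (-0.26 to 0.10). SLC30A10, which exports manganese rather than zinc, averaged 10.2 ± 0.731 CPM in mimic libraries and 9.80 ± 0.687 CPM in control libraries (SD, n = 2 each), a log2 fold change of 0.06 (95% interval -0.27 to 0.39). SLC30A3, the carrier of synaptic vesicles, had 16 and 19 reads with the mimic and 14 and 8 in the control, too few for a narrow interval (log2 fold change 0.61, 95% interval -0.47 to 1.69). SLC30A4 had 1 read in 1 library of each group, and TMEM163, a zinc efflux protein of the same superfamily, had 6 reads in mimic library 2 and 0 in the other 3 libraries. Summed exporter reads were 316 and 318 CPM in mimic libraries 1 and 2 and 301 and 315 CPM in control libraries 1 and 2.

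No metallothionein mRNA passed the test, and 4 of the 6 tested lay below 0, against 7180 of all 14464 genes tested. Of 8 genes 6 were tested, and 0 rose or fell at an adjusted p under 0.05. At an unadjusted p under 0.05 there were 2, both with the mimic lower, against 9.43% of all genes in either direction. The median log2 fold change was -0.20. MT1A, MT1F and MT1G, with at most 20 reads in any library, enter these counts and the median. MT2A, an abundant metallothionein of human liver, made up between 81.9% and 83.6% of the metallothionein reads. It had 67.1 and 60.2 CPM in mimic libraries 1 and 2, against 71.4 and 87.2 CPM in control libraries 1 and 2. The mimic was lower in both libraries, and control library 2 stood well above control library 1. The means were 63.6 ± 4.94 CPM in mimic libraries and 79.3 ± 11.2 CPM in control libraries (SD, n = 2 each), 0.801 times the control level. Its log2 fold change was -0.32 (standard error 0.08, 95% interval -0.49 to -0.15; unadjusted p = 0.000807 and adjusted p = 0.119 by edgeR's quasi-likelihood test, Benjamini-Hochberg). Among the 14464 genes its unadjusted p ranked 97. The value depended on single libraries. MT2A passed without mimic library 1 (log2 fold change -0.40, adjusted p = 0.0184) and without control library 1 (-0.46, adjusted p = 4.34e-06), but stood at -0.17 without control library 2 (adjusted p = 0.723, each by edgeR with Benjamini-Hochberg). Over the settings with all 4 libraries the adjusted p of MT2A lay between 0.000245 and 0.754 (edgeR, Benjamini-Hochberg). The lowest came with the column numbers as a replicate block, added after seeing the data. On all 4 libraries limma voom called 0 metallothioneins and 0 exporters. DESeq2 also called 0 of each, but MT2A was the only metallothionein to which it gave an adjusted p. SLC30A3 and SLC30A10 had no adjusted p from DESeq2 either.

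MT1E had 6.73 and 8.09 CPM in mimic libraries 1 and 2, against 10.5 and 11.0 CPM in control libraries 1 and 2. Its groups did not overlap and the log2 fold change was -0.52, with a 95% interval from -0.87 to -0.18 (unadjusted p = 0.00499 and adjusted p = 0.256 by edgeR's quasi-likelihood test, Benjamini-Hochberg). MT1X had 3.20 and 3.30 CPM in mimic libraries 1 and 2 and 3.45 and 3.48 CPM in control libraries 1 and 2, a log2 fold change of -0.09 with an interval from -0.64 to 0.46. Of its exon sequence 18.1% is shared with AC026461.1, a gene with 0 reads in every library. MT1A, MT1F and MT1G had between 1 and 20 reads per library, and their groups overlapped. Their log2 fold changes were 0.00 for MT1A (95% interval -1.125 to 1.126), 0.06 for MT1F (-1.07 to 1.201) and -0.65 for MT1G (-2.21 to 0.90). MT1H and MT1M had no reads in any library, under the same limit of 0.160 to 0.196 CPM. MT1H thus had no counted reads although its window held as many cores as that of MT2A.

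The 8 metallothioneins together reached 80.3 and 72.7 CPM in mimic libraries 1 and 2, and 87.2 and 104.7 CPM in control libraries 1 and 2. The sums averaged 76.5 ± 5.38 CPM in mimic libraries and 95.9 ± 12.4 CPM in control libraries (SD, n = 2 each), a log2 ratio of -0.33. Leaving out control library 2 brought the ratio to -0.19, and leaving out control library 1 to -0.45. The sum is a description and was not tested; an exact permutation test of 2 libraries against 2 cannot give a p below 0.333. Without MT2A the sum was 13.2 and 12.6 CPM in mimic libraries 1 and 2, and 15.8 and 17.4 CPM in control libraries 1 and 2, a log2 ratio of -0.37. Most of that difference was MT1E. Without MT2A and MT1E the sum was 6.47 and 4.47 CPM in mimic libraries 1 and 2, and 5.23 and 6.46 CPM in control libraries 1 and 2, with overlapping groups and a log2 ratio of -0.10. Metallothionein genes are near copies of each other. Of the distinct 50-base windows in MT2A transcripts 3.02% also occur in another gene. The share was 7.10% for MT1E, 9.87% for MT1M, 15.8% for MT1H, 16.5% for MT1G and 18.3% for MT1X. How many reads such stretches cost each gene was not tested. The larger share of reads aligned to several places in control library 2 stands beside its higher MT2A value, and its part in the result was not tested.

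MTF1, the sensor itself, had 19.5 and 17.1 CPM in mimic libraries 1 and 2 and 22.1 and 21.0 CPM in control libraries 1 and 2. Both mimic libraries were lower, with a log2 fold change of -0.25 and a 95% interval from -0.49 to -0.01. Without mimic library 2 the value was -0.15. MTF1 did not pass over all genes (unadjusted p = 0.0453 and adjusted p = 0.518 by edgeR's quasi-likelihood test, Benjamini-Hochberg). MTF1 and its target SLC30A1 thus had fold changes of opposite sign, and neither passed. MT2A, MT1E, MTF1 and SLC39A13 lay below 0 in each setting that gave them an adjusted p. They were picked for low values in these same libraries, with both mimic libraries below both control libraries. The sign could therefore hardly change in a refit, and its constancy is no further evidence.

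**Figure D5:**
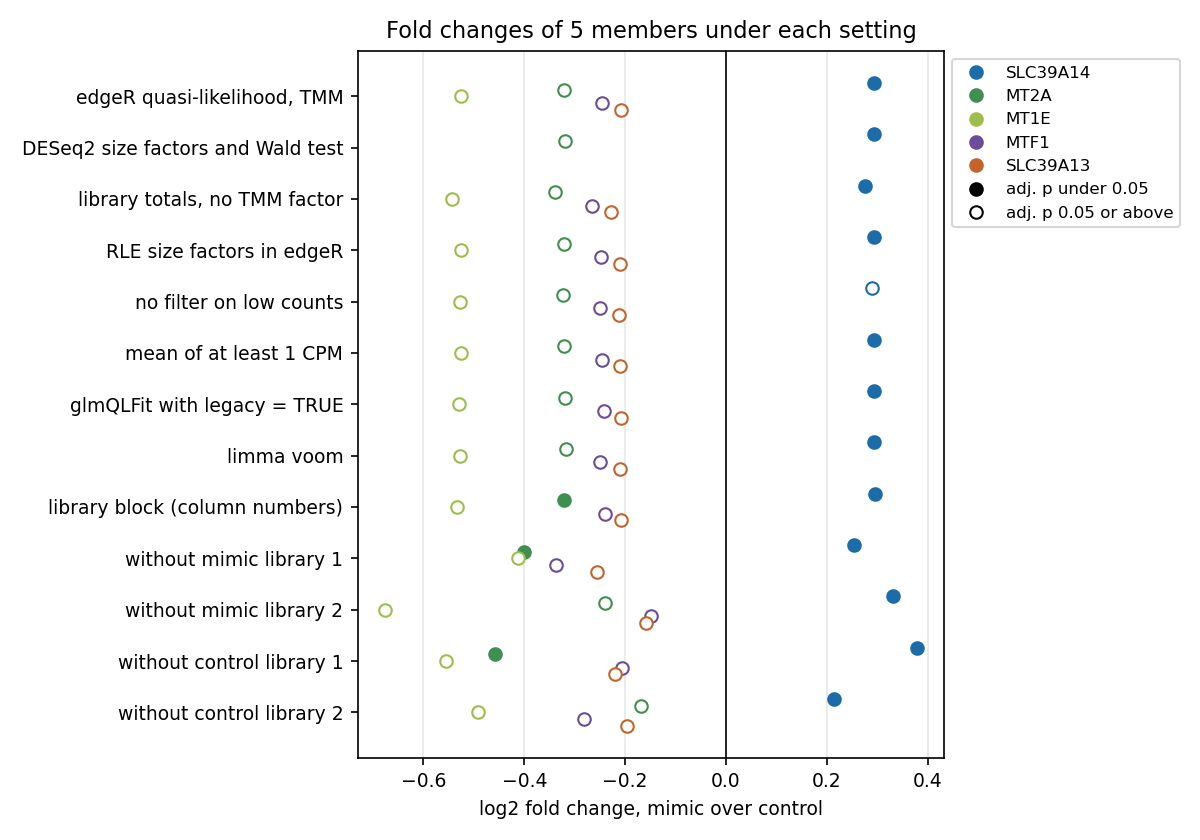
Log2 fold change of mimic over control (x axis) for the 5 members with an unadjusted p under 0.05, in each setting (rows); filled points had an adjusted p under 0.05. SLC39A14 is filled in all rows except the one with no filter on low counts, and MT2A in the rows without mimic library 1, without control library 1 and with the column numbers as a block; DESeq2 gave MT1E, MTF1 and SLC39A13 no adjusted p.

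Other genes of metal handling held no gene called by edgeR. At an unadjusted p under 0.05 there were 2 copper genes and 0 carriers of other divalent metals. The same threshold was met by 1 gene of zinc delivery and zinc enzymes and 2 metal-responsive genes. Over all genes tested 9.43% met it. Of 13 copper genes 11 were tested, with a median log2 fold change of 0.03, and the smallest p belonged to STEAP3, a metalloreductase (0.19, 95% interval 0.03 to 0.36, mimic higher). The other copper gene with an unadjusted p under 0.05, named after its values were seen, was CCS, the copper chaperone of superoxide dismutase, with the mimic lower in both libraries (-0.34, 95% interval -0.67 to -0.02). All 9 carriers of manganese and other divalent metals were tested, with a median of 0.03, and TMEM165, a manganese carrier of the Golgi, had the smallest p (0.13, 95% interval -0.0015 to 0.27). Of 11 genes for zinc delivery and zinc enzymes 7 were tested, with a median of -0.06. Among them the alcohol dehydrogenase ADH4, a zinc enzyme of liver, had 7.32 and 7.93 CPM in mimic libraries 1 and 2 and 11.7 and 10.2 CPM in control libraries 1 and 2. Its groups did not overlap and its log2 fold change was -0.52 (unadjusted p = 0.00488 and adjusted p = 0.256 by edgeR's quasi-likelihood test after Benjamini-Hochberg adjustment). The 8 metal-responsive genes other than metallothioneins had a median of 0.08. HSPA1B, a heat shock protein with the near-identical neighbour HSPA1A and with 36.5% of its exon sequence shared with AL671762.1, had the smallest p among them at a log2 fold change of 0.39 (95% interval 0.07 to 0.71), with overlapping groups. Set beside the metallothionein median of -0.20, this list lay on the other side of 0, and the difference between the lists was not tested.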

How the data were processed

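Poly(A)-selected RNA of 4 libraries, prepared from 500 ng of total RNA (integrity number above 9.5) and a stranded kit, was sequenced on a NextSeq 500, per the labels' protocols. The authors deposited raw counts of reads per Ensembl gene with no normalization. FastQC, Bowtie2, STAR and HTSeq with GRCh38.p14 are named in the submitters' processing notes, and the file header marks the alignments as free of rRNA reads. What versions, annotation release and strand setting were used is not given in the sources used here. Summary entries naming no gene held 23.1% to 24.1% of each total and were left out. Control columns carry the series' abbreviation for negative control. The remaining columns carry an unexplained number and count as mimic only because no other treatment is left; a wrong reading would void every direction. Library numbers are those of the columns; control libraries 1 and 2 stand for the samples titled 3 and 4, in no known order.

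CPM divides a count by its TMM-scaled library size, times 1000000. The test was edgeR 4.0.16 (R 4.3.3) over all genes: filterByExpr (minimum count 10, total 15), TMM, glmQLFit with legacy = FALSE and glmQLFTest, Benjamini-Hochberg, threshold 0.05. Group values are mean ± SD of 2 libraries. The step was also tested on simulated data. Alternatives used DESeq2 1.42.0, limma 3.58.1 (voom), other scalings and filters, legacy = TRUE, and each library left out. DESeq2 was run on the genes that passed filterByExpr. Counting limits cover counting error only, and no molecular identifiers are named in the labels. Lengths, overlaps and 50-base windows came from GENCODE v29 (GRCh38), which may differ from the authors' annotation, and promoters from RefSeq; the median coding transcript length and a block on the column numbers were alternatives chosen after seeing the data. The members and lists were chosen with earlier results of these data known. Full values per library are given for members with a p under 0.05, the most abundant member of each role and metallothioneins of at least 1 CPM, and the smallest p names 1 gene of each other list; SLC39A7, SLC39A8 and other low members were added after their values were seen.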

Additional observations from a re-analysis of the deposited data

How the results depend on the processing

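SLC39A14 passed in 11 of 12 other settings and did not pass with no filter on low counts, where edgeR adjusted over 30342 genes and called 0 members and 0 genes in all, with 6 members at an unadjusted p under 0.05. Over all genes DESeq2 called 30, of which 30 were among the 50 called by edgeR, and leaving out 1 library gave between 20 and 424 genes. With a library left out between 1 and 2 members passed, the second being MT2A without mimic library 1 or control library 1. The summed metallothionein log2 ratio lay between -0.45 and -0.19 with a library left out, and moved by less than the spread between libraries under every setting tried. With 2 libraries per group that is nearly fixed in advance when a library is left out, so it does not show a stable ratio. Of 293 combinations of a tested member and a setting 264 kept sign and call, and 25 changed sign, none of them a called gene. MT1A was at -0.0184 with library totals, -0.00029 with RLE factors, -0.0021 with no filter and -0.0934 with limma voom, and SLC39A8 at 0.135 with limma voom. With a library left out the ranges were -0.0617 to 0.18 for SLC39A3, -0.15 to 0.0224 for SLC39A4, -0.74 to 1.10 for SLC39A8, -0.043 to 0.0253 for SLC39A9, -0.0595 to 0.0448 for SLC39A10, -0.0951 to 0.0225 for SLC30A5, -0.0309 to 0.165 for SLC30A7, -0.18 to 0.0287 for SLC30A9, -0.0222 to 0.136 for SLC30A10, -0.67 to 0.54 for MT1A, -0.31 to 0.42 for MT1F and -3.72 to 0.48 for MT1G. In these fits the lone library was assumed to vary like the other group, and the cause of the shifts was not tested. DESeq2 gave 14 of the 26 members no adjusted p. The titles share no replicate number, but the columns are numbered 1 and 2 in each group. Deviations of the libraries numbered 1 from their group means correlated at 0.023 over genes, so nothing shows that the numbers pair the samples. With them as a replicate block, added after seeing the data and with 1 residual degree of freedom, edgeR called 306 genes, including the 50, and 2 members, SLC39A14 (0.30) and MT2A (-0.32, adjusted p = 0.000245, Benjamini-Hochberg). Depth limits the members under about 1 CPM, whose intervals span 0 widely.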

Other observations

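Several relatives of the members had few or no reads in these cells. MT1B, MT3, MT4, SLC39A12 and SLC30A8 had 0 reads in all 4 libraries, and SLC30A2 had 0 and 2 reads in mimic libraries 1 and 2 and 1 and 0 in control libraries 1 and 2. Of 9 metallothionein pseudogenes 7 had 0 reads. MT2P1 had 2 and 4 reads with the mimic and 3 and 6 in the control, and MT1XP1 had 1 read in each mimic library and 0 in each control library. Adding the pseudogenes to the metallothionein sum left its log2 ratio at -0.33.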
